A study of Mus musculus with 29 samples.

Results

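This comparison asked which genes differed between nerve-injured mouse digits that had been amputated and nerve-injured digits that had not, at day 14. It holds 6 of the 29 RNA-seq libraries of the series, chosen by their treatment and time labels: 3 amputated at day 14 (n = 3) and 3 unamputated at day 14 (n = 3). Both groups had spared nerve injury (SNI), which cuts 2 branches of the left sciatic nerve, the tibial and the common peroneal, and leaves the sural branch whole, so no group here has an uninjured nerve. The amputated digits were cut through the third phalanx 5 days after that surgery and collected 14 days later. The unamputated digits carry a time of 14 days after amputation and a regenerate tissue label while their treatment label says that none was done, and the treatment label was followed. All tissue lay distal to the metacarpophalangeal joint and had its nail removed. No strain, sex or age of the mice was stated. The labels call the libraries biological replicates, and they do not say which digits of a foot were taken or whether digits were pooled. Each sample therefore holds skin, bone, vessel and nerve together. The same pair of groups at day 7 (n = 3 and n = 3) shared the fit and stands beside day 14 where the 2 days are compared.

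After amputation through the last phalanx the mouse digit tip regrows: osteoclasts erode the stump, epidermis closes over it, a blastema of connective tissue cells forms, and new bone is laid down directly by osteoblasts. Schwann cells, the glia of peripheral nerve, wrap axons in myelin. When they lose contact with axons they break myelin down, switch off its genes and take on a repair state that expresses growth-associated genes. The comparison thus sets digits with an amputated tip against digits with an intact one, in a limb whose main nerve branches were cut in both.

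Of 17475 genes tested, 481 were called at day 14 (2.75%), 230 higher in amputated digits (1.32%) and 251 lower (1.44%), by edgeR's quasi-likelihood test at a Benjamini-Hochberg adjusted p under 0.05. Groups without overlap were more frequent than calls: in 15.9% of tested genes all 3 amputated libraries were above all 3 unamputated ones, and in 16.7% below. Among the called genes 44 rose and 82 fell by 2-fold or more. The median log2 fold change of all tested genes was 0.01, and 51.8% were positive. Without a scaling factor on total counts, 31.1% of the calls were higher in place of 47.8%. The 12 libraries of the fit held 31274245 to 43315729 counts each, and log2 values correlated within each group at r of 0.980 to 0.987 across genes. Here and below a fold change is log2 of amputated over unamputated, ± its SE, and a level is in CPM, counts scaled to a common library size by composition and not by gene length, so levels are compared between libraries and not between genes.

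The number of calls moved when single libraries were left out. It was 31 without amputated replicate 3, 136 without amputated replicate 2, and 70, 41 and 33 without unamputated replicates 1, 2 and 3. Leaving out day 7 libraries, which enter the filter and the estimate of spread, moved it too: to 995 without amputated day 7 replicate 1, 266 without amputated day 7 replicate 2, and 192 and 127 without unamputated day 7 replicates 1 and 2. In all 12 fits without 1 library, 21 genes stayed called, and all 21 were also called by DESeq2. Of the 21 stable in this way, 13 were higher in amputated digits: Gap43, Ngfr, Sox2, Epha5, Fgf5, Gfra1, Sema4f, Mgp, Kazald1, Fbln7, Cnpy2, Spink6 and Rab6b. The 8 lower ones were Mbp, Pmp2, Pmp22, Sfrp5, Slit1, Col28a1, Gatm and Tppp3. These 21 are called stable below, and the call of any other gene ended without at least 1 library. A call could end with or without a change in its log2 fold change. Runx2, at 1.738 in the full fit, was uncalled at 1.735 without unamputated replicate 3 (edgeR adjusted p = 0.133). It was also uncalled without amputated replicate 3, at 1.405.

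Myelin genes fell in amputated digits. Of 17 genes of Schwann cell myelin, all of them tested, 11 were lower, 0 higher and 6 uncalled, beside 1.44% of all tested genes called lower. The list's median log2 fold change was -1.80. Mbp, which codes for a protein that compacts the myelin sheath, was at 32.4, 35.8 and 32.6 CPM in amputated replicates 1 to 3 and at 111, 137 and 103 CPM in the unamputated ones. The 3 amputated values lay within a narrow range about 3 times under the lowest unamputated value, and the log2 fold change was -1.80 ± 0.23 (adjusted p = 0.00697). Prx, periaxin, which anchors the sheath to the basal lamina in a complex with dystrophin-related protein 2, was at 6.31, 3.76 and 6.62 CPM against 24.1, 31.4 and 22.7 CPM (-2.23 ± 0.35, adjusted p = 0.0147). Drp2, which codes for that partner, was at 1.80, 0.66 and 1.56 CPM against 10.8, 12.5 and 12.0 CPM (-3.12 ± 0.46, adjusted p = 0.013). For both genes the groups were far apart, with amputated replicate 2 the lowest library. The call of Prx ended without unamputated replicate 2 among others (adjusted p = 0.0596) and that of Drp2 without amputated replicate 3 (adjusted p = 0.054).

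Pmp2, a fatty acid carrier of peripheral myelin, had the lowest ratio among the called myelin genes named here. It had 3, 2 and 1 counts in the amputated libraries and 43, 72 and 63 counts in the unamputated ones. The lowest log2 fold change of the list, -5.08, belonged to another member. The level of Pmp2 in amputated digits was 0.033 of that in unamputated ones (95% exact interval 0.0119 to 0.0732), an interval that covers counting error only. Mag, myelin-associated glycoprotein on the membrane facing the axon, had 8, 3 and 10 counts against 55, 69 and 50 (ratio 0.118, 95% exact interval 0.0713 to 0.186). Its log2 fold change was -3.05 (edgeR adjusted p = 0.0132), and the call ended without unamputated replicate 2 (adjusted p = 0.0534). Pmp22, a compact myelin protein that other tissues make as well, was at 63.2, 71.3 and 75.5 CPM against 122, 129 and 121 CPM (-0.83 ± 0.11, adjusted p = 0.00533). Among these called genes the fall was less than 2-fold for Pmp22 and about 30-fold for Pmp2. Also lower were Ncmap (-2.27 ± 0.45), of noncompact myelin, Ugt8a (-2.17 ± 0.47), which makes the myelin lipid galactosylceramide, Gjc3 (-1.71 ± 0.32), a gap junction protein, and Mal (-0.64 ± 0.12), a membrane protein.

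Other myelin genes missed the threshold. Cldn19, a claudin of the Schwann cell sheath, was uncalled at 0.63, 0.09 and 0.06 CPM against 5.20, 5.23 and 4.32 CPM (-4.10 ± 0.96, adjusted p = 0.0509), with the groups apart. Gjb1, a gap junction protein of myelin, was uncalled at -1.28 ± 0.51. Fa2h, Egr2 and Cnp, which skin cells express too, gave 0.05 ± 0.16, 0.29 ± 0.12 and -0.12 ± 0.12, and none of them was called. Between 4 (without amputated replicate 3) and 12 myelin genes were lower when 1 library was left out, with medians from -2.08 to -1.68.

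**Figure D1:**
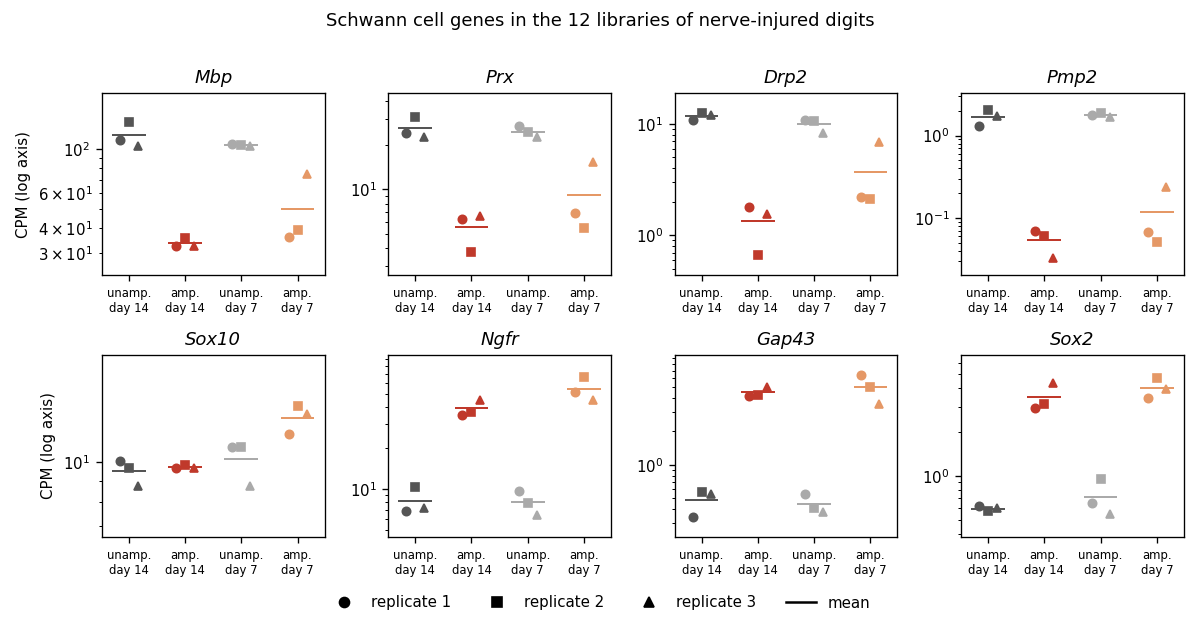
Levels of 8 Schwann cell genes in CPM on log axes, in the 12 libraries of amputated and unamputated nerve-injured digits at day 14 and day 7. Symbols mark replicates 1 to 3 and lines the mean of 3 libraries. The 4 myelin genes of the top row are lower in all amputated libraries of day 14, Ngfr, Gap43 and Sox2 are higher in them, and Sox10 overlaps between the groups of day 14.

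Genes that mark the Schwann cell lineage did not fall together. Sox10, the transcription factor that defines these glia and is also made by melanocytes and sweat glands, was at 9.67, 9.87 and 9.67 CPM in amputated libraries and 10.1, 9.71 and 8.78 CPM in unamputated ones (0.03 ± 0.12, adjusted p = 0.896). S100b (0.14 ± 0.14) and Erbb3 (-0.23 ± 0.12), the receptor for axonal neuregulin, were uncalled as well. Of the 11 identity genes 2 were higher and 2 lower, with a median of -0.03. Foxd3, a neural crest factor of immature Schwann cells, was at 3.18, 2.50 and 2.73 CPM against 0.95, 1.31 and 1.31 CPM (1.23 ± 0.21, adjusted p = 0.0156), and Cdh19, a cadherin of Schwann cell precursors, was at 7.20, 6.89 and 7.82 CPM against 3.75, 4.03 and 4.08 CPM (0.88 ± 0.18, adjusted p = 0.0363). Scn7a, a sodium channel of nonmyelinating Schwann cells, was lower at 5.77, 3.58 and 5.84 CPM against 11.3, 10.4 and 12.4 CPM (-1.16 ± 0.19, adjusted p = 0.0132), and so was Sorcs1 (-1.68 ± 0.39, adjusted p = 0.0447). These 4 genes had no overlap between groups, and each of the 4 calls ended without at least 1 library, with adjusted p up to 0.068, 0.118, 0.0631 and 0.136. In bulk tissue fewer cells of a type and less RNA per cell cannot be told apart.

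Genes of the repair state stood out in the other direction. Of 13 such genes, 4 were higher (Gap43, Ngfr, Sox2 and Runx2), beside 1.32% of all tested genes, 0 were lower, and the median was 0.52. Gap43, a growth-cone protein that denervated Schwann cells also make, was at 4.18, 4.21 and 5.00 CPM in amputated libraries and at 0.34, 0.57 and 0.54 CPM in unamputated ones (3.19 ± 0.29, adjusted p = 0.000369). Ngfr, the low-affinity neurotrophin receptor, was at 34.9, 37.0 and 45.3 CPM against 6.92, 10.3 and 7.26 CPM (2.25 ± 0.20, adjusted p = 0.000369). Sox2, a factor of immature and repair Schwann cells that Merkel cells express too, was at 2.94, 3.13 and 4.38 CPM against 0.62, 0.57 and 0.60 CPM (2.54 ± 0.26, adjusted p = 0.000999). In all 3 genes each amputated library was more than 3 times the highest unamputated one, and all 3 were stable. Runx2 is described with bone, where it is better known. Jun, whose product drives the repair state, was at 101, 100 and 108 CPM against 108, 133 and 114 CPM and was uncalled (-0.20 ± 0.17). Gdnf, a trophic factor of that state, was uncalled at 0.73 ± 0.24 (adjusted p = 0.0926). Melanocyte genes gave 0 calls of 8 tested, with the list summed at 52.9 to 61.5 CPM in amputated and 54.5 to 58.8 CPM in unamputated libraries. Of Merkel cell genes 1 of 6 was called, Sox2 itself, and the list's median was -0.28.

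The 250 bases before the start of a falling and of both rising genes are given to show the sequences beside these opposite changes, read on the gene's strand from RefSeq's table for GRCm38.p6. They were searched on both strands for ACAANG, read by Sox10 and Sox2, and for GCGNGGGCG, read by Egr2, and capitals mark a match. Prx lies on chromosome 7 (plus strand, 27499074 to 27499323), Ngfr on chromosome 11 (minus strand, 95587699 to 95587948) and Sox2 on chromosome 3 (plus strand, 34649745 to 34649994).
Prx: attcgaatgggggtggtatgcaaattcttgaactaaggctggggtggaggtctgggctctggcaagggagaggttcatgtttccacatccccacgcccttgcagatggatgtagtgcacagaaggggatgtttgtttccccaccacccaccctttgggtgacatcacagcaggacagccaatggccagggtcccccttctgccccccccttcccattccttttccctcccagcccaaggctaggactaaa
Ngfr: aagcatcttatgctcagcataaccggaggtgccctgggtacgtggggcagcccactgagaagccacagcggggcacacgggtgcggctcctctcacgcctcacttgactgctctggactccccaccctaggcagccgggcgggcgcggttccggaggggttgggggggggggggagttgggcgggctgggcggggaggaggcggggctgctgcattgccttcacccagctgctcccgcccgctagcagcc
Sox2: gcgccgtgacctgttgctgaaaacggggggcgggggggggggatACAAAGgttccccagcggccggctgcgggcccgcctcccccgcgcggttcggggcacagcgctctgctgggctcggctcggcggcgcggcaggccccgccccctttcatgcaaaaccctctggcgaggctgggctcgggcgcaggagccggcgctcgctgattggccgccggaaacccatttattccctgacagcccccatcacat
Only the Sox2 window held ACAANG, once, 206 bases before the start, and 0 of these windows held GCGNGGGCG. Of 12446 such windows of tested genes, 29.8% held ACAANG, beside 28.4% of the 176 with a window among genes called higher and 28.9% of the 194 among genes called lower. The letters for Egr2 stood in 8.36%, 5.68% and 10.3% of the same windows. These shares describe letters in a window and not binding.

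Further stable genes, in no list of nerve genes, included receptors, ligands and a collagen. Epha5, a receptor for ephrins that steers axons, was at 2.69, 2.35 and 3.54 CPM in amputated and 0.28, 0.31 and 0.30 CPM in unamputated libraries (3.25 ± 0.27, adjusted p = 0.000369). Fgf5, a fibroblast growth factor known for ending hair growth, was at 1.92, 3.67 and 2.11 CPM against 0.43, 0.34 and 0.46 CPM (2.63 ± 0.37, adjusted p = 0.00756), and it was the called gene of the 21 in the FGF pathway list. Gfra1, the co-receptor for Gdnf, was at 21.4, 18.9 and 20.5 CPM against 10.2, 9.60 and 9.87 CPM (1.04 ± 0.14, adjusted p = 0.00697). All 3 genes were higher in each amputated library than in any unamputated one. Sema4f, a semaphorin, rose by 1.63 ± 0.22, while Slit1, a guidance ligand for Robo receptors, fell by 1.59 ± 0.22, each with an adjusted p of 0.00697. Col28a1, a collagen found around peripheral glia, was at 2.78, 1.81 and 3.34 CPM against 6.37, 8.63 and 7.80 CPM (-1.52 ± 0.20, adjusted p = 0.00673).

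Falls of 2-fold or more also took in Kcna2 (-1.55 ± 0.24), an axonal potassium channel, Sfrp5 (-2.03 ± 0.25), a secreted Wnt inhibitor, and Gatm (-1.49 ± 0.19), an enzyme of creatine synthesis. Aatk (-1.76 ± 0.29), a kinase of nervous tissue, Mapk15 (-1.94 ± 0.45), an atypical MAP kinase, Dennd1c (-1.92 ± 0.30), a Rab exchange factor, Doc2g (-1.85 ± 0.37) and Sptbn5 (-1.66 ± 0.37), a spectrin, completed the 15 largest falls with Lilrb4a (-1.47 ± 0.35), a leukocyte receptor with a close paralog whose reads it may share. Lilrb4a, Dennd1c, Sptbn5 and Doc2g overlap exons of at least 1 other counted gene, and no source used here says whether counting used strand. On the same strand, in mean day 14 CPM, the other gene held 2.38 beside 2.94 for Lilrb4a and 2.09 beside 1.78 for Doc2g. On the opposite strand it held 15.4 beside 1.88 for Dennd1c, and the genes beside Sptbn5, at 1.39, held 6.74 and 4.67. Of 12 axon and neuron genes, 7 were under the filter on low counts (Nefl, Nefm, Nefh, Snap25, Calca, Scn10a and Th). Of the other 5, 1 was called: Uchl1, a neuronal deubiquitinase, at 3.01, 3.34 and 4.90 CPM against 1.81, 1.51 and 1.55 CPM (1.2 ± 0.28, adjusted p = 0.0461). Tubb3, a neuronal tubulin, was uncalled at -0.32 ± 0.13.

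Of 18 osteoblast and bone matrix genes, 4 were called, all higher in amputated digits, and 14 were not called. Of all tested genes, 1.32% were called higher. The levels differed between amputated libraries. Of the 18, 17 had a positive log2 fold change and the median was 1.21. Runx2, the factor that commits cells to the osteoblast lineage, was at 21.0, 8.40 and 26.3 CPM in amputated libraries and at 5.11, 6.05 and 5.55 CPM in unamputated ones (1.74 ± 0.35, adjusted p = 0.0367). Amputated replicate 2 was the lowest amputated library. Dmp1, a phosphoprotein of maturing osteocytes, was at 10.8, 2.98 and 6.75 CPM against 2.12, 2.39 and 1.55 CPM (1.76 ± 0.41, adjusted p = 0.0447). Pth1r, the parathyroid hormone receptor, was at 35.6, 23.5 and 39.6 CPM against 17.6, 17.7 and 17.6 CPM (0.90 ± 0.20, adjusted p = 0.0413). The calls of Runx2, Dmp1 and Pth1r each ended without amputated replicate 1, amputated replicate 3 or any unamputated replicate of day 14, with adjusted p up to 0.133, 0.143 and 0.135, respectively. Without 1 library the number of called bone genes ran from 0 to 8, the highest without amputated replicate 2, and the median from 0.93 to 1.59.

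The window before the start of Runx2 is shown because its own product reads TGNGGTT, which was searched on both strands and is in capitals. It lies on chromosome 17 of GRCm38.p6 (minus strand, 44814628 to 44814877).
Runx2: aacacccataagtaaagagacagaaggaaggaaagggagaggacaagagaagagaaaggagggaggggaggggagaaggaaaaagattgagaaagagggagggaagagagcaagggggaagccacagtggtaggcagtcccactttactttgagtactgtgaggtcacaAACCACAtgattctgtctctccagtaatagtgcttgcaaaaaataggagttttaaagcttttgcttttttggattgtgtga
It held 1 match, 81 bases before the start, as did 11.2% of the windows of tested genes and 10.2% of those of genes called higher.

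The abundant matrix genes were not called, and in them amputated replicate 2 lay among or near the unamputated libraries. Col1a1, the main collagen chain of bone and dermis, was at 7901, 1188 and 6832 CPM in amputated replicates 1 to 3 and at 1365, 1080 and 1387 CPM in the unamputated libraries (2.06 ± 0.62, adjusted p = 0.0913). Replicates 1 and 3 were thus about 5-fold above the unamputated range and replicate 2 inside it. Ibsp, bone sialoprotein, showed the same order at 161, 36.1 and 148 CPM against 33.2, 18.4 and 34.1 CPM (2.01 ± 0.64, adjusted p = 0.105), and Sparc, which binds collagen and mineral, at 2254, 911 and 1982 CPM against 826, 716 and 893 CPM (1.08 ± 0.32, adjusted p = 0.085). Summed over the bone list, amputated replicates 1, 2 and 3 held 16640, 3656 and 14560 CPM and the unamputated libraries 3124 to 4031 CPM. The collagen list gave 0 calls of 24, with a median of 0.66, and 6 calls without amputated replicate 2. By list medians the other skeletal and matrix lists lay between 0.15 for cartilage and 0.81 for osteoclasts, beside 0.01 for all genes.

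**Figure D2:**
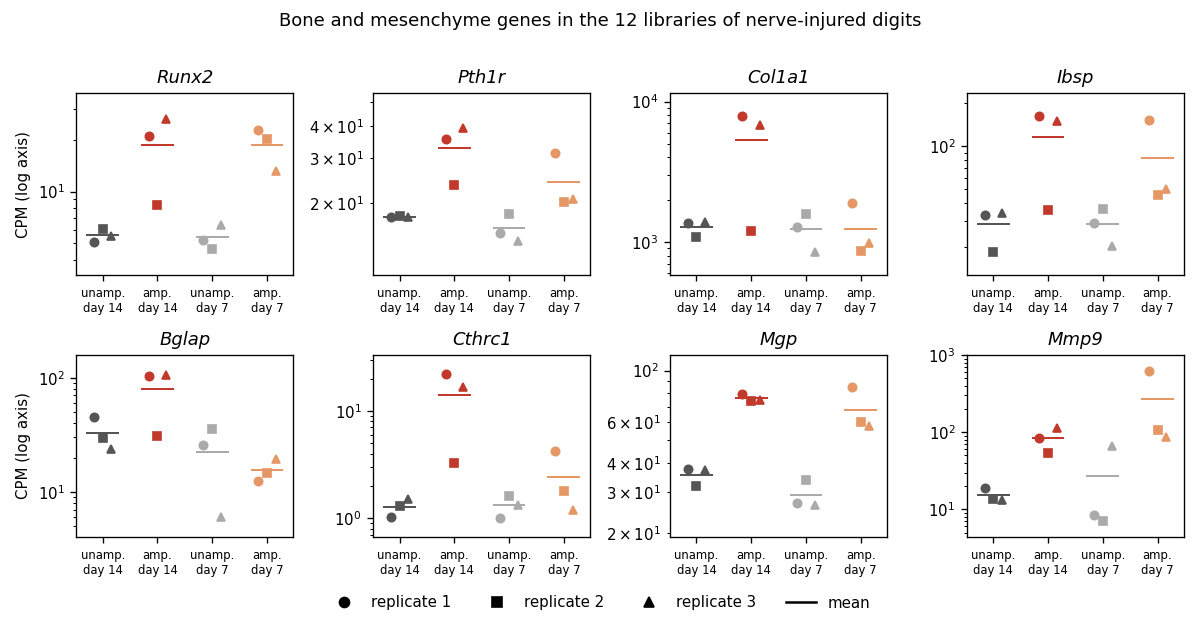
Levels of 8 bone, mesenchyme and osteoclast genes in CPM on log axes, in the 12 libraries at day 14 and day 7. Symbols mark replicates 1 to 3 and lines the mean of 3 libraries. Amputated replicate 2 of day 14, the square, lies at or near the unamputated libraries in Col1a1, Ibsp and Bglap and apart from them in Mgp, and amputated replicate 1 of day 7 is the highest library in Mmp9.

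Cthrc1, a collagen triple helix protein of activated fibroblasts and of the digit blastema, had the largest rise among called genes with a mean of at least 1 CPM and no overlap between groups. It was at 21.9, 3.25 and 16.7 CPM in amputated and 1.02, 1.31 and 1.495 CPM in unamputated libraries (3.45 ± 0.67, adjusted p = 0.0363). Amputated replicate 2 was again the lowest amputated library. The call ended without any 1 of 6 libraries, among them amputated replicate 3 and each unamputated one (adjusted p up to 0.129). It was the called gene among 22 of the blastema and regenerating mesenchyme, whose median was 0.32. Tnc (0.78 ± 0.22, adjusted p = 0.0699), a matrix protein of healing wounds, and Mdk (1.01 ± 0.27, adjusted p = 0.0576), a growth factor of regenerating tissue, were uncalled. Serpinh1, the collagen chaperone Hsp47, was at 242, 174 and 232 CPM against 126, 121 and 132 CPM (0.77 ± 0.18, adjusted p = 0.0462), the called one of 24 matricellular and crosslinking genes. Distal limb patterning genes gave 0 calls of 18, with a median of -0.08.

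Osteoclast genes, those of the cells that resorb bone, gave 0 calls of 15. Their median was 0.81 at day 14 and 1.62 at day 7. Mmp9, a protease they secrete, was at 84.6, 53.4 and 114 CPM in amputated and 18.9, 13.8 and 13.0 CPM in unamputated libraries of day 14 (2.46 ± 1.03, adjusted p = 0.188). The groups were apart, and the spread of the fit includes day 7, where amputated libraries ran from 87.2 to 617 CPM and unamputated ones from 7.12 to 66.2 CPM. Ctsk, the main collagenase of osteoclasts, gave 1.58 ± 0.70 and Acp5, their acid phosphatase, 0.81 ± 0.41, both uncalled. Fitted on the 6 libraries of day 14 alone, the list median was 0.36. That fit applied the filter on low counts anew and tested 16626 genes, so its list members may differ. The median of 0.81 covers genes that passed the filter on all 12 libraries, day 7 included.

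Mgp, an inhibitor of calcification in cartilage and vessel walls, was also higher. It was at 79.3, 74.3 and 74.9 CPM in amputated and 37.7, 31.7 and 37.1 CPM in unamputated libraries (1.10 ± 0.14, adjusted p = 0.00632), so that here amputated replicate 2 did not stand apart, and the call was stable. Frzb, a Wnt antagonist of cartilage, was at 6.92, 4.97 and 6.33 CPM against 2.49, 1.79 and 2.58 CPM (1.41 ± 0.24, adjusted p = 0.0151). Mgp was the called gene of 17 in the cartilage list, which does not hold Frzb, and the list's sum was 1747 to 1944 CPM in amputated and 1637 to 1926 CPM in unamputated libraries. Of 12 tendon genes 1 was called: Cilp2, a cartilage intermediate layer protein, at 14.1, 12.5 and 13.5 CPM against 45.9, 25.7 and 35.7 CPM (-1.42 ± 0.30, adjusted p = 0.0413). Tppp3, a tubulin-binding protein that marks tendon sheath cells, was at 92.2, 114 and 97.1 CPM against 246, 199 and 265 CPM (-1.23 ± 0.14, adjusted p = 0.00349) and was stable. Myoc, a secreted glycoprotein, fell by 1.14 ± 0.26 (adjusted p = 0.0477).

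Other stable rises were of smaller size. Kazald1, a secreted protein related to IGF-binding proteins, was at 21.2, 22.6 and 23.2 CPM against 12.2, 13.6 and 11.7 CPM (0.84 ± 0.10, adjusted p = 0.00426). Fbln7, a fibulin of the matrix, rose by 0.94 ± 0.13, Spink6, a protease inhibitor of skin, by 0.95 ± 0.13, Rab6b, a GTPase of Golgi traffic, by 0.86 ± 0.12 and Cnpy2, a protein of the endoplasmic reticulum, by 0.62 ± 0.09. Among the 15 largest rises were also Slc26a4 (1.54 ± 0.31), an anion exchanger, Slc8a3 (1.48 ± 0.35), a sodium-calcium exchanger, Lyplal1 (1.42 ± 0.24), a lysophospholipase-like enzyme, and Zfp607b (1.56 ± 0.31), a zinc finger gene with a close paralog whose reads it may share. Slc8a3 followed the bone pattern, at 7.45, 2.62 and 5.74 CPM against 2.37, 1.62 and 1.69 CPM.

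Skin lists gave 0 or 1 call each, beside 2.75% of all tested genes called. Differentiated epidermis gave 1 call of 18, with a median of -0.12 and summed levels of 83660 to 88750 CPM in amputated and 95170 to 100900 CPM in unamputated libraries. The called gene was Krt9, the keratin of footpad skin, at 2687, 2191 and 2478 CPM against 3272, 3363 and 3373 CPM (-0.44 ± 0.11, adjusted p = 0.0461). Basal and wound keratinocytes gave 0 calls of 15. Krt19, a keratin of glands and hair follicles, rose by 0.95 ± 0.18 (adjusted p = 0.0267), the called gene of 15 in the sweat gland list. Hard keratins, which build nail and hair, gave 0 calls of 21 with 19 positive and a median of 0.32, although the labels say that the nail was removed. Krt84, of nail and hair, was at 614, 609 and 1195 CPM against 285, 447 and 409 CPM (1.08 ± 0.30, adjusted p = 0.0732), with the groups apart. Krt36 (0.76 ± 0.22) and Krt35 (0.62 ± 0.17) were uncalled too, and the summed list stood at 4404 to 5816 CPM in amputated and 3050 to 4116 CPM in unamputated libraries.

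Vessel and fat genes changed singly, beside 2.75% of all tested genes called. Of 15 genes of blood endothelium 2 were higher: Cldn5, the tight junction claudin of endothelium, at 23.7, 27.3 and 23.5 CPM against 16.7, 18.5 and 15.4 CPM (0.56 ± 0.10, adjusted p = 0.019), and Aplnr, the apelin receptor of growing vessels, at 16.8, 8.37 and 15.1 CPM against 7.32, 5.34 and 4.92 CPM (1.2 ± 0.29, adjusted p = 0.0488). The list's median was 0.25 and its summed level 401 to 454 CPM in amputated and 335 to 380 CPM in unamputated libraries. Of 12 mural cell genes 1 was lower, Myh11, the smooth muscle myosin (-0.52 ± 0.12, adjusted p = 0.0413). Of 13 adipocyte genes 2 were lower: Plin4, a lipid droplet protein, at 20.8, 17.3 and 17.5 CPM against 34.9, 39.1 and 42.0 CPM (-1.06 ± 0.16, adjusted p = 0.0123), and Lipe, hormone-sensitive lipase (-0.48 ± 0.12, adjusted p = 0.0488). Skeletal muscle genes summed to 6.23 to 6.71 CPM in amputated and 6.66 to 6.89 CPM in unamputated libraries, with 0 calls of 10.

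Immune lists gave 0 or 1 call in each direction, beside 2.75% of all tested genes called. Of 17 macrophage genes, Cx3cr1, the fractalkine receptor, was higher at 6.61, 6.44 and 7.01 CPM against 3.81, 3.15 and 3.78 CPM (0.90 ± 0.18, adjusted p = 0.0363), and Cd163, a scavenger receptor of resident macrophages, was lower at 10.5, 14.0 and 14.1 CPM against 20.0, 21.7 and 22.3 CPM (-0.73 ± 0.16, adjusted p = 0.0399). Gzmb, a protease of cytotoxic lymphocytes, had 39, 46 and 74 counts in amputated and 4, 5 and 4 in unamputated libraries. The ratio was 12.0 (95% exact interval 6.80 to 23.0, counting error only). Its log2 fold change was 3.61 (edgeR adjusted p = 0.0151). The call ended without amputated replicate 3 or any unamputated replicate of day 14 (adjusted p up to 0.0957). Gzmb was the called gene of 12 tested in the T and NK cell list, and Cd8a, Cd8b1, Gzma and Ncr1 were under the filter on low counts. Il33, an alarmin of barrier tissue (0.56 ± 0.14), and Cxcl12, a stromal chemokine (0.66 ± 0.15), rose with adjusted p of 0.0484 and 0.0413. The complement list gave 1 call of 12 tested genes, higher in amputated digits. Neutrophil, erythroid, B cell, mast cell, dendritic cell and interferon lists gave 0 calls, of 12, 8, 9, 10, 10 and 15 tested genes. The neutrophil median was 0.42 and was -0.43 without amputated replicate 2, which held the highest summed level of that list, 122 CPM, beside 54.9 and 19.4 CPM in the other amputated libraries and 14.7 to 75.0 CPM in unamputated ones.

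Genes of the secretory pathway gave 3 calls of 20, all higher, beside 1.32% of all tested genes called higher. They were Calr (0.41 ± 0.10) and Pdia6 (0.35 ± 0.08), which fold new proteins in the endoplasmic reticulum, and Kdelr2 (0.39 ± 0.09), which returns them there. Between 0 and 4 genes of that list were called higher when 1 library was left out. Of the 34 cell cycle genes 0 were called, with a median of -0.17 and 30 negative. Mki67, the gene of the Ki-67 antigen, was at 94.3, 43.05 and 85.8 CPM against 140, 188 and 156 CPM and was uncalled (-1.11 ± 0.27, adjusted p = 0.0544). Of signalling lists, those of Wnt (35 genes), BMP and TGF-beta (33) and IGF (13) gave 0 calls. Gli1, the readout gene of hedgehog signalling, was at 8.48, 5.48 and 7.27 CPM against 12.6, 15.5 and 16.2 CPM (-1.06 ± 0.22, adjusted p = 0.0377), 1 of 13 of its list, and Adamts14, a procollagen protease, fell by 0.88 ± 0.20 (adjusted p = 0.0414), 1 of 23 proteases and inhibitors. Exons of Gli1, Plin4 and Pdia6, and of Prx, Lipe, Jun and Cnp above, overlap another counted gene on the opposite strand. Reads of both genes may be mixed. In mean day 14 CPM the other gene held 0.244 beside 15.8 for Prx, 0.471 beside 32.9 for Lipe and 0.343 beside 111 for Jun. It held 122 beside 12.4 for Cnp, 6.23 beside 10.9 for Gli1, 25.2 beside 28.6 for Plin4 and 84.6 beside 123 for Pdia6.

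Among the 5 most abundant falls of 2-fold or more were Mbp, Tppp3, Myoc, Xist and Nrbp2. Xist, the X-inactivation RNA, was at 271, 161 and 234 CPM in amputated and 413, 529 and 465 CPM in unamputated libraries (-1.08 ± 0.24, adjusted p = 0.0461). Nrbp2, a pseudokinase gene, was at 54.8, 35.1 and 37.2 CPM against 75.5, 94.5 and 85.8 CPM (-1.01 ± 0.22, adjusted p = 0.0414). The following were picked after their values were seen. Malat1 (-0.59 ± 0.18, adjusted p = 0.0776) and Neat1 (-1.91 ± 0.84, adjusted p = 0.208), nuclear RNAs, were uncalled, while Zfc3h1 (-1.32 ± 0.30), Ints6l (-1.26 ± 0.22) and Fancm (-1.27 ± 0.21) were called lower. In Xist, Malat1, Neat1, Nrbp2, Zfc3h1, Ints6l, Fancm and Mki67 amputated replicate 2 was the lowest library of day 14. The part of that library's makeup in these values was not tested.

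**Figure D3:**
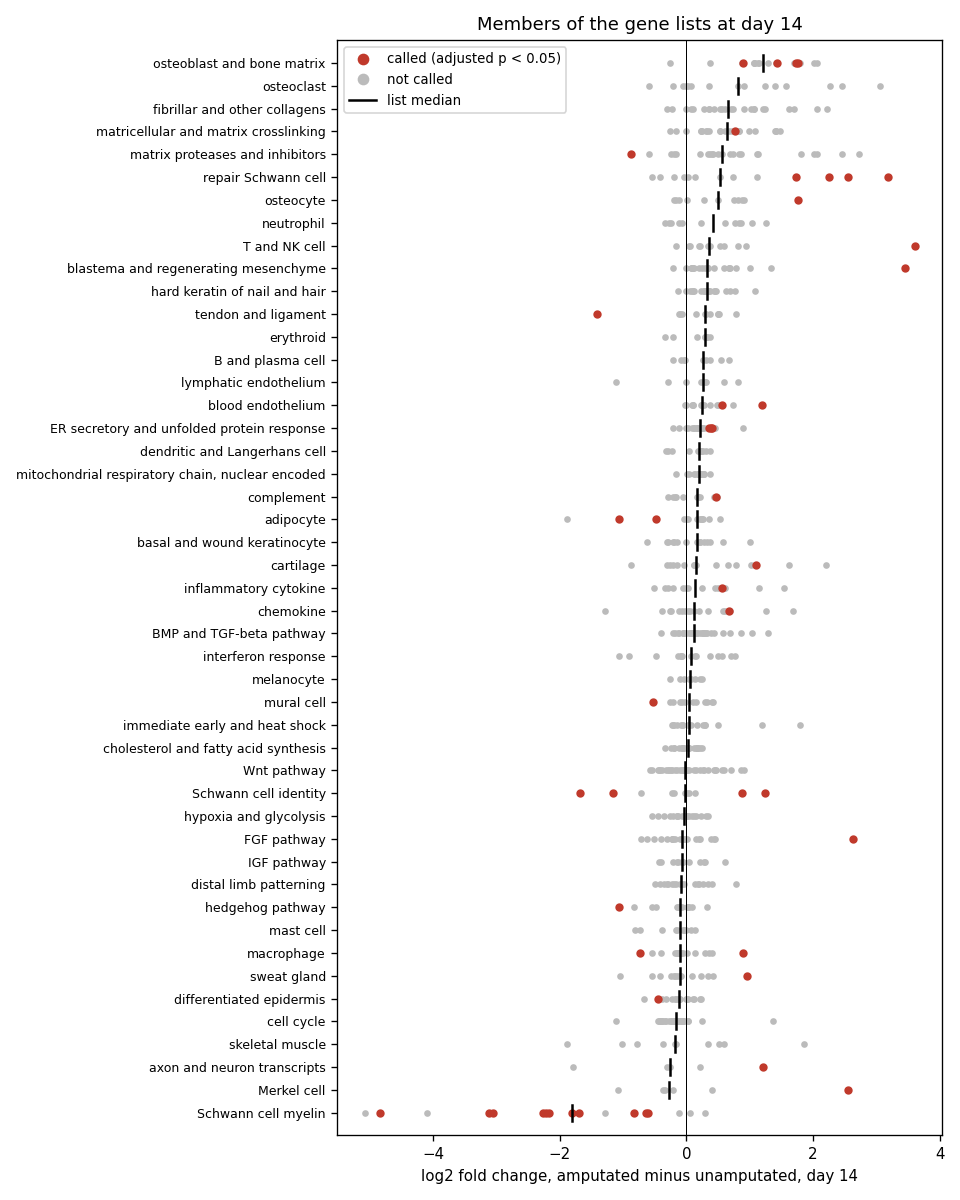
Log2 fold change at day 14 (amputated over unamputated, horizontal axis) of the tested members of 47 gene lists, sorted by list median. Red points were called and grey ones were not, and black bars mark medians. The myelin list stands lowest at a median of -1.80 and the osteoblast list highest at 1.21.

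At day 7 the same contrast called 236 genes (1.35%), 105 higher (0.601%) and 131 lower (0.75%). Groups without overlap were found there in 10.4% of tested genes with amputated libraries higher and in 8.86% with them lower. In all, 79 genes were called at both days, 16.4% of the day 14 calls and 33.5% of the day 7 calls. The 2 contrasts share no library, though they share the fit's estimate of spread. Of the 79 genes, 44 were higher at both days and 35 lower at both. Of the 481 called at day 14, 459 had the same sign at day 7. The size was larger at day 14 than at day 7 in 422 of them, a share that the choice by day 14 calls raises. By edgeR's test of the difference between the days 0 genes passed, and 1092 had an unadjusted p under 0.05. DESeq2 called 18 and limma voom 0, so none of the values below is shown to be particular to day 14.

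The repair genes had similar sizes at both days. Gap43 was at 6.42, 5.03 and 3.50 CPM in amputated day 7 libraries against 0.55, 0.40 and 0.38 CPM (3.48, beside 3.19 at day 14), Ngfr gave 2.76 beside 2.25 and Sox2 2.48 beside 2.54. Myelin genes were lower at day 7 as well, with 5 of 17 called and a median of -1.07 beside -1.80. Mbp at day 7 was at 36.3, 39.1 and 74.6 CPM in amputated libraries against 106, 105 and 103 CPM, and Drp2 at 2.20, 2.13 and 6.80 CPM against 10.7, 10.6 and 8.32 CPM. In both genes amputated day 7 replicate 3 stood between the other amputated libraries and the unamputated ones. Bone and mesenchyme genes varied among themselves: Col1a1 had a log2 fold change of 0.00 at day 7 and Cthrc1 of 0.88, beside 2.06 and 3.45 at day 14, and the bone list's median was 0.27 beside 1.21. Runx2 was called at both days, with 1.79 at day 7 beside 1.74, and Dmp1 gave 1.59 at day 7 beside 1.76. The difference between the days had an adjusted p of 0.772 for Cthrc1. Fancm and Plin4, called lower at day 14, gave -0.01 and -0.13 at day 7.

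**Figure D4:**
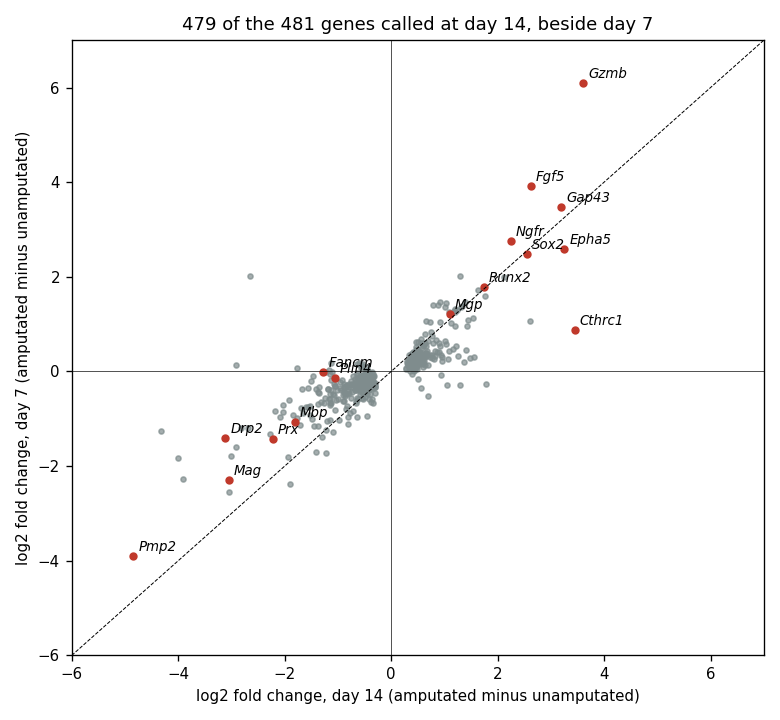
Log2 fold change (amputated over unamputated) at day 14 on the horizontal axis and at day 7 on the vertical axis, for 479 of the 481 genes called at day 14, leaving out 2 genes with a group at 0 counts. The dashed line marks equal values. Gap43, Ngfr, Sox2 and Runx2 lie near the line, Cthrc1 far under it with 3.45 and 0.88, and Gzmb and Fgf5 above it.

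A separate table of the series holds amputated digits at day 14 after sham surgery (n = 3) and after SNI (n = 3). It was counted and normalized apart, so its levels cannot be set on the same scale. There, amputation was shared and the nerve injury differed, and edgeR called 0 of 16084 genes, 952 of which had an unadjusted p below 0.05. Gap43 was at 2.87, 2.57 and 2.73 CPM after SNI and 1.96, 2.35 and 1.08 CPM after sham surgery (log2 fold change 0.60 ± 0.38), and Ngfr at 16.0, 7.77 and 13.0 CPM against 12.9, 15.9 and 13.8 CPM (-0.21 ± 0.61). Mbp was at 60.3, 89.9 and 51.4 CPM against 73.6, 81.1 and 94.2 CPM (-0.30 ± 0.35). The groups of Gap43 do not overlap, and those of Ngfr and Mbp do. Prx was at 14.0, 12.6 and 5.81 CPM against 21.0, 20.2 and 24.8 CPM (-1.03 ± 0.72), and Drp2 at 4.54, 2.21 and 1.61 CPM against 5.92, 5.87 and 6.71 CPM (-1.14 ± 0.86). Both were lower after SNI in each library, and none of these 5 genes was called. Pmp2 overlapped, at 0.26, 7.08 and 0.63 CPM against 2.84, 3.20 and 4.23 CPM (-0.38 ± 1.07). Sox2 (-0.21 ± 0.45) and Epha5 (-0.77 ± 0.62) overlapped as well and were uncalled. With 3 libraries against 3, groups without overlap are expected by chance in 10% of genes, and their share among all genes there is not given. Mgp was at 111, 79.1 and 123 CPM against 54.4, 51.1 and 49.3 CPM (1.01 ± 0.22, adjusted p = 0.555), apart but uncalled.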

How the data were processed

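Poly(A) RNA of mouse digits was made into strand-specific libraries, per the labels' protocols. The authors deposited raw counts per gene and library in 2 tables. The submitters' processing notes name the GRCm39 build. No source used here names the aligner or counter. The amputation table lists 55487 Ensembl identifiers, of which 55141 (99.4%) received a symbol from GENCODE M21. That annotation also gave exon overlaps between genes.

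Genes were filtered by filterByExpr (minimum count 10, minimum total 15), scaled by TMM (factors 0.954 to 1.039) and fitted on all 12 amputation libraries with a mean per group by the robust quasi-likelihood model of edgeR. A gene was called at a Benjamini-Hochberg adjusted p under 0.05 over all 17475 tested genes, and the SE is the log2 fold change over the square root of F. The common biological coefficient of variation was 0.17. P-values measure the spread between libraries. Counts limit precision most in genes near 0, where intervals cover counting error only.

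Named genes were, among called genes with a mean of at least 1 CPM and no overlap between groups, the 15 largest rises and falls and the 5 most abundant changed at least 2-fold each way, plus up to 4 members of each list with the smallest p, the genes that stayed called without each library and others said to be picked by value. For genes named by size or abundance, groups without overlap follow from the choice and are no further evidence. The members and the 47 gene lists were chosen with earlier results of these data known. Alternatives were RLE, upper quartile and no scaling, no filter, DESeq2, limma voom with sample quality weights, the libraries of a day alone, a replicate block and each library left out. Where 2 libraries remained in a group the fit pooled the spread over groups. Some genes are not reported here. The procedure was also run on counts simulated from the means, spreads and library sizes of these data. That setting held no deviating library, so it cannot speak to calls that depended on single libraries. Versions were DESeq2 1.42.0, limma 3.58.1, edgeR 4.0.16 and R 4.3.3.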

Additional observations from a re-analysis of the deposited data

How the results depend on the processing

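Counts of calls depended on the processing. At day 14, 481 genes were called in the reported fit, 1878 by DESeq2 and 2212 by limma voom. Scaling by RLE, upper quartile or total counts and leaving out the filter kept the count between 468 and 610. The counts without 1 library ran from 31 to 995 at day 14 and from 84 to 315 at day 7. At day 7, 236 genes were called, 727 by DESeq2, 371 by limma voom and 57 from the 6 libraries of that day alone. The difference between the days called 18 genes by DESeq2. With a replicate block 56 genes were called at day 14 and 115 at day 7. Deviations of same-numbered libraries from their group means correlated at r from -0.20 to 0.14 over 18 pairs. Those of other-numbered ones correlated at -0.13 to 0.18 over 36 pairs, and 2 of 12 libraries were closest to their own number. The labels name no animal or batch behind the numbers. Correlations over all genes cannot show that no gene follows a shared animal or batch. Of the 100 genes named, 74 were called, and 0 of these changed direction under the alternatives. Sox10 and Fa2h, both uncalled, changed sign: Sox10 to -0.015 on total counts and -0.021 without unamputated replicate 3, and up to 0.075 without unamputated replicate 1. Fa2h went to -0.145 by limma voom, to -0.15 without amputated replicate 2 and to -0.076 without unamputated replicate 2, and up to 0.197 without unamputated replicate 1. The cause was not tested.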
